A study of Mus musculus with 16 samples.

Results

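The genes described here are 10 members of the fibroblast growth factor (FGF) system, namely the ligands Fgf3, Fgf4, Fgf5, Fgf8, Fgf15 and Fgf17 and the receptors Fgfr1, Fgfr2, Fgfr3 and Fgfr4. They were picked by gene name from the 27807 genes of an expression table of differentiating mouse embryonic stem (ES) cells, and each of the 10 names was found once. The choice was made by name, with earlier results of these data known. All 10 members passed the filter for testing, which asked for an average of 10 or more normalised counts across the libraries.

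Polyadenylated RNA was sequenced from ES cells and from embryoid bodies, the floating aggregates in which ES cells start to differentiate. The cells were wild-type (WT, labelled Taf4+/+) or carried the Taf4a null allele on both chromosomes (KO, labelled Taf4-/-). Its protein is part of the core of TFIID, a complex that binds promoters and helps to recruit RNA polymerase II. The series lists 2 independent ES lines of each genotype, derived from blastocysts of heterozygous crosses, and the labels do not say which library came from which line. ES cells were grown with LIF and serum on a layer of inactivated mouse embryonic fibroblasts. Embryoid bodies were sampled on the way to glutamatergic neurons, namely before retinoic acid was added (EB4), a day into the treatment (EB5) and near its end (EB8). Genotype and stage gave 8 groups of 2 libraries each. No group held untreated embryoid bodies of the EB5 or EB8 age. Retinoic acid and days in culture therefore cannot be told apart in the steps after EB4.

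FGFs are secreted proteins that bind receptor tyrosine kinases together with heparan sulphate chains on the cell surface. The receptors signal through adaptor proteins and Ras to the ERK kinases, and ERK activity switches on its own inhibitors, such as the Sprouty proteins, and ETS transcription factors such as Etv4 and Etv5. In ES cells Fgf4 is the main ligand made by the cells themselves and drives their exit from pluripotency, and FGFs later pattern the neural tube.

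The libraries held between 22442118 and 40711826 reads in genes, and the ES libraries were all deeper than those of embryoid bodies, so depth and stage are confounded between ES and EB4 and cannot be told apart. The targeted gene, Taf4a, was no lower with the KO label. Its normalised count ran from 1591 to 1960 in the WT-labelled and from 1973 to 2400 in the KO-labelled libraries, and it was called at no stage. A count per gene sums all exons, so it does not show whether part of the transcript is missing, and WT and KO below stand for the labels alone. Of the markers of other cell types, the pluripotency list summed to between 5422 and 7164 normalised counts in the WT-labelled EB8 libraries and to 33211 and 33506 in the KO-labelled ones, with all 9 genes detected in each. The neural progenitor list, of which 10 genes were in the table, summed to 54604 and 49977 in the WT-labelled and to 8786 and 9283 in the KO-labelled EB8 libraries, where Dbx1 was at 0 in replicate 1. At EB5 the pluripotency list summed to 18614 and 15581 in the WT-labelled and to 49983 and 71637 in the KO-labelled libraries, and the neural progenitor list to 19099 and 27987 against 9947 and 6366. The 5 neuron markers, all of which were lower with the KO label at EB8, summed there to 15718 and 19480 against 1405 and 1247. Of the 10 neural progenitor genes, 8 were lower and 0 higher in the KO-labelled EB8 libraries, which the labels call neural precursor cells. In RNA from whole cultures, fewer cells of a type and less RNA per cell cannot be told apart.

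A member was called where its adjusted p in limma, from the Benjamini-Hochberg method over all 16124 genes tested, was below 0.05. Differences are on the scale of log2(normalised count + 1), where a normalised count is the reads of a gene divided by the size factor of the library, and are given as the KO-labelled minus the WT-labelled mean or as the later minus the earlier stage. The p-values rest on 1 spread per gene, pooled over the 2 libraries of each of the 8 groups and moderated, and not on the compared groups alone. The 2 libraries of a group were described as independent ES lines without a label that ties a library to a line. Deviations of same-numbered libraries were correlated between some stages of a genotype, as given at the end, so the groups may not contribute to this spread independently.

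The loci are given first, because 3 of the ligands sit side by side. Coordinates are on build NCBI37 (mm9) with the GENCODE annotation of that build. Fgf3 (chr7:152023988-152030341), Fgf4 (chr7:152047291-152051148) and Fgf15 (chr7:152082437-152086858) all lie on the plus strand of chromosome 7, followed by Oraov1 and the cyclin gene Ccnd1. The start of Fgf15 is 35146 bases from that of Fgf4. Fgf5 lies on chromosome 5 (98683203 to 98706049, plus strand), Fgf8 on chromosome 19 (45811288 to 45817405, minus strand) and Fgf17 on chromosome 14 (71036012 to 71042075, minus strand). Fgfr1 lies on chromosome 8 (26624126 to 26686186, plus strand), Fgfr2 on chromosome 7 (137305965 to 140315033, minus strand), Fgfr3 on chromosome 5 (34064373 to 34079716, plus strand) and Fgfr4 on chromosome 13 (55254001 to 55270120, plus strand). Exons of Fgf15 share 478 bases with the antisense non-coding gene Gm17685. The library preparation was unstranded, so reads in bases shared by genes on opposite strands cannot be told apart. Exons of Fgfr1 share 761 bases with a second annotated entry of the same name and 125 bases with the antisense gene Gm16159, and exons of Fgfr2, of which a single long transcript model spans many other genes, share 314 bases with Ctbp2.

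The 150 bases just upstream of the annotated start are shown for the 5 members that differed between the genotypes at EB8, since retinoic acid receptors and general transcription factors act at such stretches. Capitals mark matches on either strand to TATAAA or TATATA (forms of the TATA box), GGGCGG (the GC box bound by Sp factors), AGGTCA (the half-site of nuclear receptors), ATGCAAAT (the octamer bound by POU factors) or ACAAAG (a core of SOX sites). The TATATA form was added after these sequences had been seen, and its matches can overlap each other.
Fgf4, chr7:152047141-152047290, plus strand: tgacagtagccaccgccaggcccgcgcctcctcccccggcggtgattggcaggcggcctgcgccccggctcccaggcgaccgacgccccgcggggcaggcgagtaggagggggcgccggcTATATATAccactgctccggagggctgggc
Fgf17, chr14:71042076-71042225, minus strand: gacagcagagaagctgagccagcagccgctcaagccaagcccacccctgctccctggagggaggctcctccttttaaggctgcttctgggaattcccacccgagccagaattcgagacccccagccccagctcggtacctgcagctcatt
Fgf15, chr7:152082287-152082436, plus strand: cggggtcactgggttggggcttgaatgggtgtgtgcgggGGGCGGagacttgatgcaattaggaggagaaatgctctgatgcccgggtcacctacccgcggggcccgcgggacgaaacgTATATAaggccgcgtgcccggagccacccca
Fgfr3, chr5:34064223-34064372, plus strand: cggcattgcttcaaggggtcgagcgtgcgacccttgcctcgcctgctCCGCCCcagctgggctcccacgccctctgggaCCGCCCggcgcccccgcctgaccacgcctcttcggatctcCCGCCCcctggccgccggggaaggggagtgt
Fgfr4, chr13:55253851-55254000, plus strand: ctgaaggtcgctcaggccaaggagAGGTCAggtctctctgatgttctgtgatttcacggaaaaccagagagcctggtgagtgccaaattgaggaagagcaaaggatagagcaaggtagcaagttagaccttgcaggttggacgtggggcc
The neighbours Fgf4 and Fgf15 both hold TATATA close to the start, at positions -30 and -31. That form is found in 3.11% of the 22369 stretches of the same length at protein-coding genes, and TATAAA, which no member holds, in 7.83%. The GC box is found in 5 of the 10 members, with 3 matches in Fgfr3 and 1 in Fgf15 and others in the stretches of Fgf8, Fgfr2 and Fgf5, which are not shown, against 36.6% of all stretches with any. Fgfr4 holds the single half-site among the members, which 7.32% of all stretches hold. No member holds the octamer (0.997% of all), and among the members ACAAAG (8.58% of all) is found in the stretch of Fgf5, which is not shown. The stretch of Fgf17 holds none of these motifs. The GC content was 75.3% for Fgf4, 74.7% for Fgfr3, 64.7% for Fgf15, 62.0% for Fgf17 and 52.7% for Fgfr4, beside a median of 57.3% over all stretches. A match is a run of letters and not a measured binding site.

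The ligand Fgf4, the ERK-activating factor of ES cells, was higher in the KO-labelled libraries at EB5 and EB8. The WT-labelled libraries held 4681 and 12649.7 normalised counts at ES, 2407 and 1178 at EB4, 262 and 171 at EB5, and 7.35 and 61.4 at EB8. The KO-labelled libraries held 7461 and 9096 at ES, 6664 and 9259.7 at EB4, 1097 and 4008 at EB5, and 451 and 898 at EB8. The groups overlapped at ES, and from EB4 on both KO-labelled libraries lay above both WT-labelled ones. At EB8 the means were 674 ± 316 in KO-labelled and 34.4 ± 38.2 in WT-labelled libraries (SD, n = 2 each), a log2 difference of 4.80 ± 0.83 (SE) at an adjusted p of 0.00174 in limma. It was 3.35 without WT-labelled EB8 replicate 1 and 6.25 without WT-labelled EB8 replicate 2, which held 7 and 58 reads, and the call held in both. For EB5 it was 3.30 ± 0.83 (SE) at an adjusted p of 0.0457 in limma, a call that was lost without WT-labelled EB5 replicate 1 (3.61), WT-labelled EB5 replicate 2 (3.00) or KO-labelled EB5 replicate 2 (2.37). At EB4 it was 2.22 ± 0.83 and was not called (adjusted p = 0.134). The WT-labelled fall from EB5 to EB8 was called, at -3.22 (limma, adjusted p = 0.0289), and was lost without WT-labelled EB5 replicate 1 (-2.92), WT-labelled EB5 replicate 2 (-3.52) or WT-labelled EB8 replicate 1 (-1.77). The step from EB4 to EB5 gave -2.99 without a call (limma, adjusted p = 0.0763). In the KO-labelled libraries none of the 3 steps was called for Fgf4.

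Fgf17, a ligand of the Fgf8 subfamily, was also higher in the KO-labelled libraries, from a level that declined with stage in both genotypes. It stood at 349.5 and 527 normalised counts in WT-labelled ES libraries, 43.8 and 83.6 at EB4, 14.1 and 9.88 at EB5, and 8.40 and 2.12 at EB8. In KO-labelled libraries it stood at 1538 and 851 at ES, 238 and 189 at EB4, 106 and 78.5 at EB5, and 14.8 and 44.7 at EB8. Both KO-labelled libraries lay above both WT-labelled ones at each of the 4 stages. The log2 difference was 2.85 ± 0.62 (SE) at EB5 (limma, adjusted p = 0.0276) and 2.31 ± 0.62 at EB8 (limma, adjusted p = 0.0182). The EB5 call was lost without any 1 of the 4 EB5 libraries (log2 differences between 2.61 and 3.08). At ES it was 1.41 and at EB4 1.79, with adjusted p of 0.413 and 0.106 in limma, so neither was called. The EB8 values rest on 8 and 2 reads in WT-labelled and 14 and 42 reads in KO-labelled libraries, and the call was lost without WT-labelled EB8 replicate 2 (log2 difference 1.51) or without KO-labelled EB8 replicate 2 (1.54). From ES to EB4 Fgf17 fell by 2.80 on the log2 scale in WT-labelled libraries (limma, adjusted p = 0.011), a call that was lost without WT-labelled ES replicate 2 (-2.51) or WT-labelled EB4 replicate 1 (-2.35). In KO-labelled libraries the same step gave -2.43 and missed the threshold (adjusted p = 0.0518).

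Fgf15, known as a gut hormone of bile acid control and expressed in the embryonic neural tube, went the other way. Its WT-labelled libraries held 126 and 203 normalised counts at ES, 618 and 204 at EB4, 135 and 126 at EB5, and 106 and 91.1 at EB8. Its KO-labelled libraries held 231 and 271 at ES, 259 and 285 at EB4, 29.4 and 22.3 at EB5, and 1.06 and 6.39 at EB8. Both genotypes thus held at least 126 before retinoic acid, and after it all 4 KO-labelled libraries lay below all 4 WT-labelled ones. At EB5 the KO-labelled mean of 25.8 ± 5.01 was below the WT-labelled mean of 130.4 ± 5.85 (SD, n = 2 each), a log2 difference of -2.30 ± 0.59 (SE, limma, adjusted p = 0.0479), and the call was lost without any 1 of the 4 EB5 libraries (-2.49 to -2.11). At EB8 the log2 difference was -4.67 ± 0.59 (limma, adjusted p = 0.000279). The KO-labelled EB8 values rest on 1 and 6 reads, and the fitted difference moved between -3.64 and -5.17 as the pseudocount went from 5 to 0.1. The step from EB4 to EB5 was called in KO-labelled libraries, at -3.36 (limma, adjusted p = 0.00967), and was lost when any 1 of the 4 libraries of these groups was left out (adjusted p between 0.0592 and 0.0776). The step from EB5 to EB8 in the same libraries gave -2.77 (adjusted p = 0.0559 in limma). Fgf15 was called in none of the 3 WT-labelled steps.

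Fgf5, the ligand that marks the epiblast after implantation, had a single peak at EB4. It rose from 209 and 286 normalised counts in WT-labelled ES libraries to 3708 and 4971 at EB4 and was back at 163 and 266 at EB5 and 87.2 and 97.4 at EB8. In KO-labelled libraries it went from 129.5 and 359.5 at ES to 2751 and 1589 at EB4, 198 and 98.9 at EB5, and 124 and 138 at EB8. The peak was called in both genotypes: in WT-labelled libraries the rise was 4.13 ± 0.47 on the log2 scale (SE, limma, adjusted p = 0.000633) and the fall -4.36 ± 0.47 (limma, adjusted p = 0.000233). In KO-labelled libraries the rise was 3.27 (limma, adjusted p = 0.0069), which was lost without KO-labelled ES replicate 1 (2.54) or KO-labelled EB4 replicate 1 (2.87), and the fall -3.89 (limma, adjusted p = 0.000904). The KO-labelled peak lay below the WT-labelled one in every library, with a log2 difference of -1.04 (95% interval -2.07 to -0.01) that was not called (limma, adjusted p = 0.216).

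Fgf8, which patterns the primitive streak and the midbrain border, was highest at EB4 and had the widest spread. It held 469 and 206 normalised counts in WT-labelled and 394 and 40.8 in KO-labelled EB4 libraries, so the groups overlapped. At ES it held 18.2 and 90.9 in WT-labelled and 25.7 and 25.0 in KO-labelled libraries, and at EB5 14.1 and 9.88 against 18.0 and 23.3. At EB8 it held 0 and 7.41 in WT-labelled and 12.7 and 1.07 in KO-labelled libraries, and a count of 0 allows up to 3 reads, which covers counting error only. The genotype difference at EB4 was -1.28 with a 95% interval from -3.98 to 1.42 on the log2 scale (limma, adjusted p = 0.582). The step from EB4 to EB5 in WT-labelled libraries, at -4.60, also missed the threshold (adjusted p = 0.065 in limma).

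Fgf3, a ligand of hindbrain and inner ear development, was low throughout and was called in no comparison. It lay between 9.45 and 89.3 normalised counts in the 8 WT-labelled libraries and between 10.7 and 91.2 in the 8 KO-labelled ones. The genotypes overlapped at ES, EB5 and EB8, and at EB4 the KO-labelled libraries, with 57.2 and 57.4, lay above the WT-labelled 21.9 and 34.3. Fgf3 was thus not called where its neighbours Fgf4 or Fgf15 were. Over the 16 libraries its log2 values had a Pearson correlation of 0.67 with those of Fgf4 and 0.47 with those of Fgf15, as a description.

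**Figure D1:**
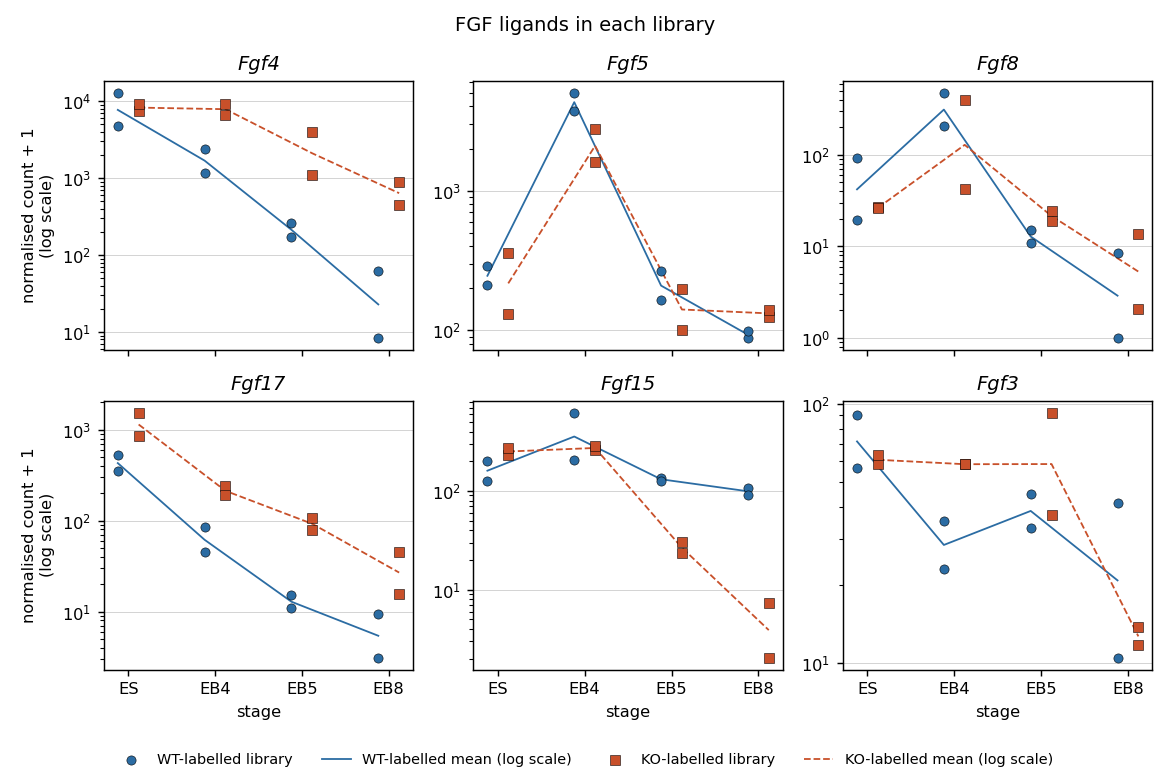
Normalised count + 1 on a log axis against stage for the 6 ligands, with a point per library (circles WT-labelled, squares KO-labelled) and lines through the means of 2 libraries on the log scale. Fgf4 and Fgf17 squares lie above the circles from EB4 on, Fgf15 squares lie far below them at EB5 and EB8, and Fgf5 peaks at EB4 in both genotypes.

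Among the receptors, Fgfr3, which is made by neural progenitors and limits bone growth, was lower in the KO-labelled libraries at EB8. The WT-labelled libraries held 220.3 and 188 normalised counts at ES, 101 and 328 at EB4, 596 and 426 at EB5, and 2408 and 2875 at EB8. The KO-labelled libraries held 237 and 197 at ES, 137 and 159.5 at EB4, 279 and 274 at EB5, and 208 and 218 at EB8. The KO-labelled values at EB8 were thus within the range of the ES libraries of both genotypes, while both WT-labelled values were above the 2 of every other group. The log2 difference at EB8 was -3.62 ± 0.41 (SE, limma, adjusted p = 0.000153), between group means of 213 ± 7.44 and 2641 ± 330.0 (SD, n = 2 each). In WT-labelled libraries the rise from EB5 to EB8 was 2.38 ± 0.41 (SE, limma, adjusted p = 0.00368). The change from EB5 to EB8 differed between genotypes by -2.76 ± 0.59 on the log2 scale, which just missed the threshold (limma interaction term, adjusted p = 0.0545). At EB5 the genotype difference was -0.86 and was not called (limma, adjusted p = 0.261).

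Fgfr2, whose splice forms serve epithelia and neural tissue, rose on the first day of retinoic acid in WT-labelled libraries. The WT-labelled libraries went from 742 and 1651 normalised counts at EB4 to 4741 and 5037 at EB5, a log2 change of 2.14 ± 0.37 (SE, limma, adjusted p = 0.006) whose call was lost without WT-labelled EB4 replicate 1 (1.56) or WT-labelled EB5 replicate 2 (2.10). The KO-labelled libraries went from 794 and 833 to 2033 and 1104, which was not called. At EB5 both KO-labelled libraries were below both WT-labelled ones, with a log2 difference of -1.70 ± 0.37 (limma, adjusted p = 0.0266). That call was lost without WT-labelled EB5 replicate 1 (-1.75), WT-labelled EB5 replicate 2 (-1.66) or KO-labelled EB5 replicate 2 (-1.27). At EB8 they held 2239 and 1286 against 3608 and 3218, again without overlap, and the log2 difference of -1.01 (95% interval -1.80 to -0.21) missed the threshold (limma, adjusted p = 0.067). At ES the levels were 828 and 1031 in WT-labelled and 529.6 and 609 in KO-labelled libraries.

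Fgfr4, the receptor through which Fgf15 acts in the liver, had the lowest mean per length of the 4 receptors in all 8 groups. It stood at 208 and 133 normalised counts in WT-labelled EB5 libraries and 235 and 233 at EB8, and at 31.3 and 56.2 and then 81.2 and 66.0 in the KO-labelled ones. The groups did not overlap at either stage. The log2 difference was -1.96 ± 0.46 (SE) at EB5 (limma, adjusted p = 0.035) and -1.66 ± 0.46 at EB8 (limma, adjusted p = 0.0205). Both calls were lost when any 1 of the 4 libraries of that stage was left out, with log2 differences between -2.37 and -1.55 at EB5 and between -1.81 and -1.52 at EB8. Before retinoic acid Fgfr4 held 61.9 and 112 at ES and 51.5 and 36.5 at EB4 in WT-labelled libraries, and 27.4 and 54.3 and then 60.7 and 57.4 in KO-labelled ones, and the log2 difference at ES was -1.09 (limma, adjusted p = 0.388). It rose by 1.92 from EB4 to EB5 in WT-labelled libraries (limma, adjusted p = 0.038), a call lost without any 1 of these 4 libraries (1.59 to 2.24). The change over this step differed between genotypes by -2.40 on the log2 scale without passing the threshold (95% interval -3.80 to -0.99, limma interaction term, unadjusted p = 0.00288).

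Fgfr1, the main FGF receptor of ES cells and epiblast, had the highest mean per length of the 4 receptors in all 8 groups and was the single member called at EB4. It held 6877 and 5471 normalised counts in WT-labelled and 3261 and 3162 in KO-labelled EB4 libraries, a log2 difference of -0.93 ± 0.24 (SE, limma, adjusted p = 0.0395). At ES it held 3116 and 3152 in WT-labelled and 2365 and 2870.3 in KO-labelled libraries, and at EB5 8675 and 5082 against 5579.6 and 4605. At EB8 the order was the opposite, with 4126 and 3152 in WT-labelled and 4662 and 5508 in KO-labelled libraries, and the log2 difference of 0.49 was not called (limma, adjusted p = 0.155). In WT-labelled libraries Fgfr1 rose by 0.97 from ES to EB4 (limma, adjusted p = 0.0167) and fell by 0.88 from EB5 to EB8 (limma, adjusted p = 0.0328). The rise was lost without WT-labelled ES replicate 1 (0.96), WT-labelled ES replicate 2 (0.98) or WT-labelled EB4 replicate 1 (0.80), and the fall without WT-labelled EB5 replicate 1 (-0.49), WT-labelled EB8 replicate 1 (-1.07) or WT-labelled EB8 replicate 2 (-0.69). Genes of chromosome 8, where Fgfr1 lies, were higher as a whole in replicate 1 of the WT-labelled EB4, EB5 and EB8 libraries. The median of its 853 tested genes deviated there by 0.41, 0.40 and 0.40 on the log2 scale from the mean over libraries, against -0.16 to 0.03 in the other 13 libraries. The part of this shift in the Fgfr1 result was not tested. Without WT-labelled EB4 replicate 1 the log2 difference at EB4 was -0.77 (limma, adjusted p = 0.18), and the call was also lost when any 1 of the other 3 EB4 libraries was left out (-1.10 to -0.91). For the chromosomes of the other members the same median lay between -0.11 and 0.11 in each library.

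**Figure D2:**
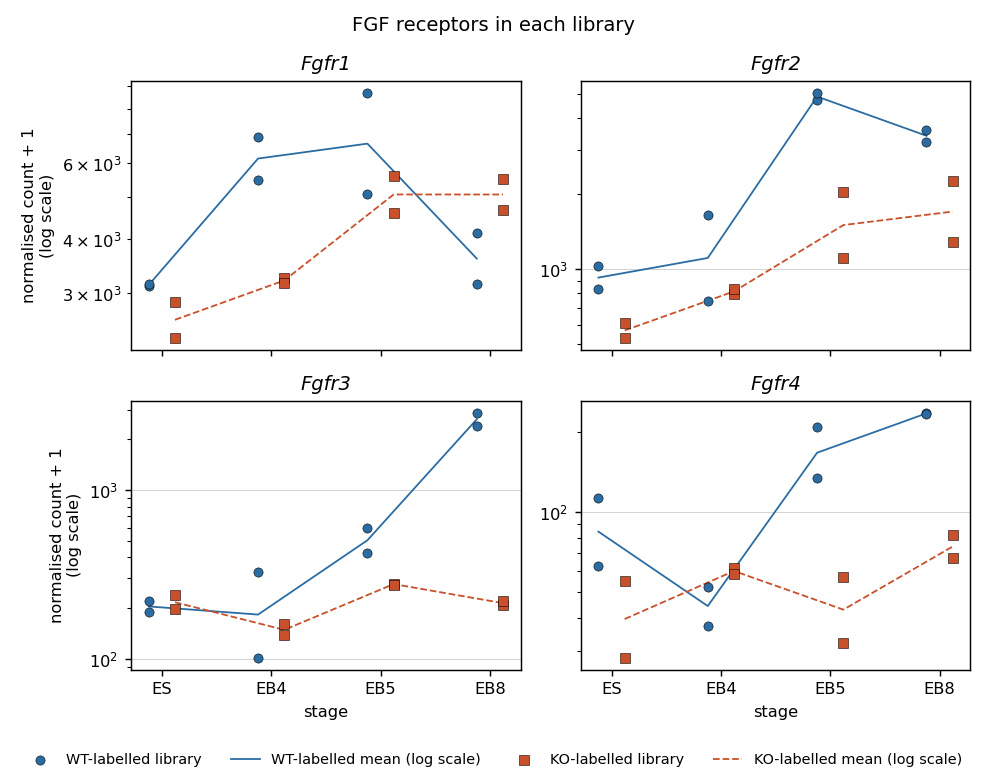
Normalised count + 1 on a log axis against stage for the 4 receptors, with a point per library (circles WT-labelled, squares KO-labelled) and lines through the means of 2 libraries on the log scale. Fgfr3 circles climb to 2408 and 2875 at EB8 while the squares are at 208 and 218 there, and Fgfr2 and Fgfr4 squares lie below the circles at EB5 and EB8.

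The calls were then counted by stage. At ES 0 of the 10 members were called by limma, where 0.0% of all tested genes were called. Of the 10 members, 2 had an unadjusted p below 0.05 in limma (Fgf17 and Fgfr4), beside 1846 of all 16124 genes tested. EdgeR and DESeq2 on the recovered reads also called 0 members at ES. At EB4 1 member was called (Fgfr1, lower), with 6.12% of all genes called. At EB5 5 members were called, with 4.34% of all genes called. Fgf4 and Fgf17 were the 2 members higher in KO-labelled libraries (2.17% of all genes) and Fgf15, Fgfr2 and Fgfr4 the 3 lower ones (2.17%). At EB8 5 members were called, where 22.9% of all genes were called. The 2 higher members were again Fgf4 and Fgf17 (10.4% of all genes) and the 3 lower ones were Fgf15, Fgfr3 and Fgfr4 (12.5%). The EB5 calls lay close to the threshold, with adjusted p from 0.0266 to 0.0479, and leaving out any 1 EB5 library left between 0 and 2 of the 5. At EB8 3 or 4 of the 5 were left, and the calls of Fgf4, Fgf15 and Fgfr3 held without any 1 of the 4 EB8 libraries. Without KO-labelled EB8 replicate 1, Fgfr2 was called in addition. The median log2 difference of the members was -0.48 at EB5 and -0.11 at EB8, beside -0.01 and -0.03 over all genes. The pluripotency and neural progenitor sums of the EB5 and EB8 libraries and the neuron sum at EB8, given above, moved together with these calls. The split was already there at EB4, before retinoic acid. The pluripotency list summed there to 44872 and 28813 normalised counts in WT-labelled and to 73375 and 98308 in KO-labelled libraries. The neural progenitor list summed at EB4 to 13177 and 13046 against 7778 and 5427. At EB8 the endoderm markers summed to 1871 and 1550 normalised counts in WT-labelled and to 674 and 610 in KO-labelled libraries. The epiblast markers summed there to 7006 and 7723 against 4796 and 2991, and the mesoderm markers to 402 and 448 against 734 and 1261. The part of these marker lists in the calls was not tested.

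**Figure D3:**
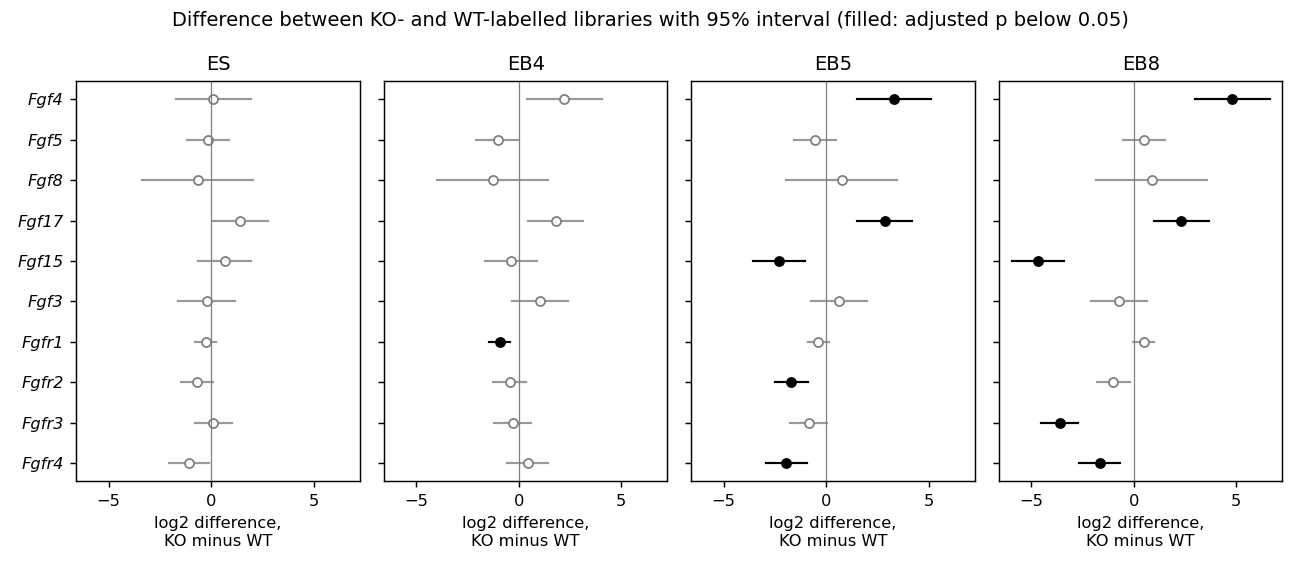
Log2 difference between KO-labelled and WT-labelled libraries with its 95% interval for each member at the 4 stages, on a common axis, filled where the adjusted p was below 0.05. At EB8 Fgf4 (4.80) and Fgf17 (2.31) lie to the right of 0, and Fgf15 (-4.67), Fgfr3 (-3.62) and Fgfr4 (-1.66) to the left.

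Over the steps of differentiation, 3 of the 10 members were called at each of the 3 steps in WT-labelled libraries. From ES to EB4, 3 members were called (Fgf5 and Fgfr1 higher, Fgf17 lower), with 16.5% of all genes called. From EB4 to EB5, 3 were called (Fgfr2 and Fgfr4 higher, Fgf5 lower), with 3.73% of all genes called. From EB5 to EB8, 3 were called (Fgfr3 higher, Fgf4 and Fgfr1 lower), with 10.4% of all genes called. In KO-labelled libraries the called members were Fgf5 from ES to EB4 (3.5% of all genes called) and Fgf5 and Fgf15 from EB4 to EB5 (2.51%). From EB5 to EB8 limma called 0 members in KO-labelled libraries (0.738% of all genes). At an unadjusted p below 0.05 in limma there were 3 members, beside 2065 of all 16124 genes tested. EdgeR called 0 members for this step and DESeq2 called 2. Fibroblast markers, 10 genes of the kind the feeder layer makes, summed to 1196 and 2750 normalised counts in WT-labelled and 288 and 617 in KO-labelled ES libraries. At EB4 they summed to 1076 and 1539 and to 556 and 584. At EB5 the sums were 2555 and 1842 in WT-labelled and 1251 and 1163 in KO-labelled libraries, and at EB8 2419 and 3162 against 1093 and 3432. Fap was at 0 in both WT-labelled ES libraries. The part of feeder cells in the genotype differences at ES and in the steps from ES to EB4 was not tested.

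The difference between the genotypes' own changes was tested by interaction terms. Limma called 0 members for the step from ES to EB4 (0.0% of all genes called), 0 for EB4 to EB5 (0.0%) and 0 for EB5 to EB8 (0.781%). At an unadjusted p below 0.05 in limma there were 1, 3 and 3 of the 10 members, beside 1129, 478 and 1568 of all 16124 genes tested. EdgeR called 0 members in each of the 3 and DESeq2 called 0, 0 and 1. For EB5 to EB8 the log2 term of Fgf15 was -2.37 (95% interval -4.18 to -0.55, limma, adjusted p = 0.306). The lists of members called in WT-labelled and in KO-labelled steps are therefore not shown to differ for any member.

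Levels can be compared between members after division by the length of the joined exons, which ran from 1350 bases for Fgf8 to 8061 for Fgfr1. In normalised counts per kilobase, the order of the receptors by mean was Fgfr1, Fgfr2, Fgfr3, Fgfr4 in each of the 8 groups. In WT-labelled EB5 replicate 2 Fgfr2 (646) lay above Fgfr1 (630), and in WT-labelled EB8 replicate 2 Fgfr3 (418) and Fgfr2 (413) lay above Fgfr1 (391). At ES the WT-labelled means were 389 ± 3.09 for Fgfr1, 119 ± 18.4 for Fgfr2, 29.7 ± 3.30 for Fgfr3 and 24.5 ± 10.1 for Fgfr4 (SD, n = 2), and the libraries of the last 2 overlapped. At EB8 they were 451 ± 85.4, 438 ± 35.4, 384 ± 48.0 and 65.9 ± 0.457, so Fgfr1, Fgfr2 and Fgfr3 could not be ordered beyond their spread. In KO-labelled EB8 libraries they were 631 ± 74.2, 226 ± 86.4, 31.0 ± 1.08 and 20.7 ± 3.02, and neighbours in this order did not overlap. Fgfr3 made up 28.8% ± 5.2 of the summed receptor level per kilobase in WT-labelled and 3.41% ± 0.17 in KO-labelled EB8 libraries, and Fgfr1 33.6% ± 4.5 and 69.5% ± 9.3. The sum itself was 1339 ± 73.4 normalised counts per kilobase in WT-labelled and 909 ± 14.2 in KO-labelled EB8 libraries.

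The order of the ligands changed with stage and genotype. Per kilobase, Fgf4 led at ES in WT-labelled libraries with 2859.9 ± 1859.7 normalised counts, ahead of Fgf17 with 260 ± 74.4. At EB4 Fgf5 led in WT-labelled libraries (1735 ± 357, ahead of Fgf4 with 592 ± 287), whereas Fgf4 led in KO-labelled ones (2628 ± 606, ahead of Fgf5 with 868 ± 329). At EB5 the libraries of the highest WT-labelled ligands overlapped, with 85.7 ± 29.1 for Fgf5, 72.1 ± 3.24 for Fgf15 and 71.4 ± 21.1 for Fgf4. At EB8 Fgf15 led in WT-labelled libraries (54.5 ± 5.87), ahead of Fgf5 (36.9 ± 2.90), and Fgf4 led in KO-labelled ones (223 ± 104), where Fgf15 was last (2.06 ± 2.09). Fgf4 was 71.7% ± 6.9 of the summed ligand level per kilobase in KO-labelled and 8.74% ± 9.1 in WT-labelled EB8 libraries. The summed level of the 6 ligands fell between ES and EB8 from a mean of 3381 ± 2034 to 119 ± 20.3 in WT-labelled libraries and from 3721 ± 175 to 305 ± 116 in KO-labelled ones, as a description without a test.

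**Figure D4:**
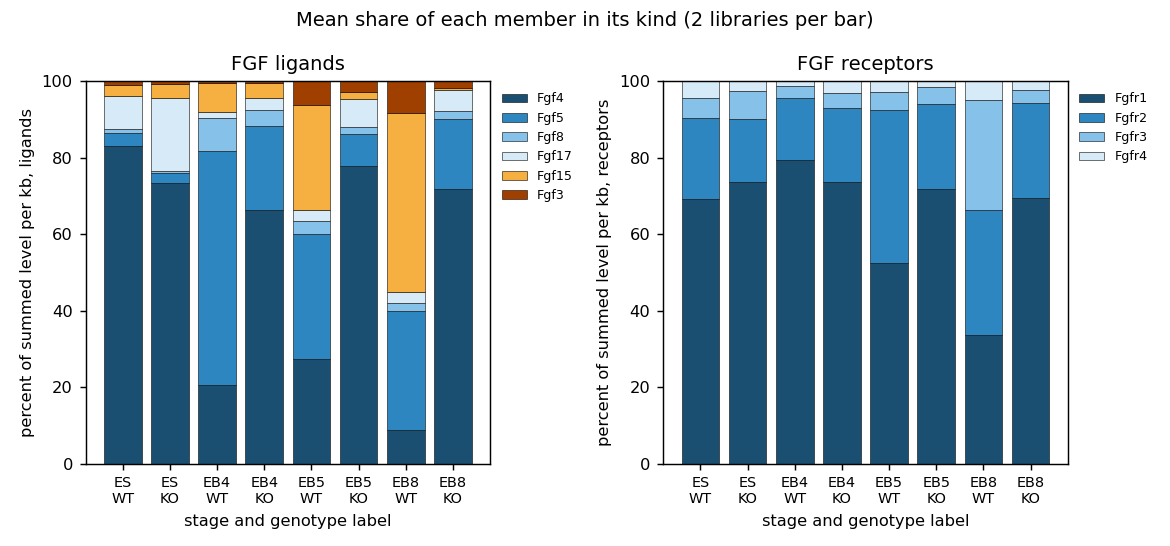
Mean share of each member, in percent, of the summed level per kilobase of the 6 ligands (left) and of the 4 receptors (right), with a bar for each stage and genotype label. Fgf4 fills 71.7% of the KO-labelled and 8.74% of the WT-labelled EB8 ligand bar, and Fgfr3 28.8% of the WT-labelled and 3.41% of the KO-labelled EB8 receptor bar.

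The members also moved together or apart across libraries. Over the 16 libraries, which share stage and genotype, the log2 values of Fgf4 and Fgf17 had a Pearson correlation of 0.87 and those of Fgf5 and Fgf8 of 0.82, as a description. Fgf4 was inversely related to Fgfr2 (-0.86) and to Fgfr3 (-0.85), and Fgf17 to Fgfr2 (-0.86). Among genes averaging 50 normalised counts or more, the patterns most like that of Fgf4 included those of Klf9 (0.98) and Gpr160 (0.97). For Fgf17 they were Angptl4 (0.97), Pnp2 (0.95) and Slc29a1 (0.95), for Fgf15 Sfxn1 (0.95), Sall1 (0.94) and Cdca7 (0.94), and for Fgf5 they included Mapk4 (0.88) and Stk17b (0.87). For Fgf8 they were Tulp3 (0.91), Zic5 (0.90) and Larp1 (0.89), and for Fgf3 1500012F01Rik (0.86), Cenpa (0.85) and Sec61a2 (0.85). For the receptors they were Pion (0.93), Bend4 (0.92) and Kcnip3 (0.91) with Fgfr1, Robo2 (0.97), Slit1 (0.95) and Plxna2 (0.94) with Fgfr2, Klc1 (0.95), Ebf2 (0.94) and Fam181b (0.94) with Fgfr3, and Fam198b (0.89), Vit (0.88) and Ntng2 (0.88) with Fgfr4. Each is among the 3 highest of at least 13045 values over the same 16 libraries.

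The surroundings of the chromosome 7 ligands were described by 7 listed genes. Oraov1, Ccnd1, Ano1, Fadd and Ppfia1 start between 53714 (Oraov1) and 384631 bases (Ppfia1) from the start of Fgf4. No distance was taken for Tpcn2 and Cttn. At EB8 0 of the 7 were higher in KO-labelled libraries and 2 were lower, where 10.4% of all genes were called higher and 12.5% lower. The median log2 difference of the 7 was -0.05 beside -0.03 over all genes. Ccnd1, a G1 cyclin, held 7111 and 5281 normalised counts in WT-labelled and 561 and 1346 in KO-labelled EB8 libraries (log2 difference -2.82, limma, adjusted p = 0.0013). Ano1, a chloride channel gene, held 592 and 339.9 against 18.99 and 91.6 (-3.39, limma, adjusted p = 0.0048). Both calls held without any 1 of the 4 EB8 libraries. Along the chromosome Fgf4, which was higher, thus lay between Ano1 on one side and Fgf15 and Ccnd1 on the other, all 3 of which were lower, and Fgf3 and Oraov1 in the same stretch were not called. Fadd, Tpcn2, Cttn and Ppfia1 were not called either. At ES, EB4 and EB5 none of the 7 listed genes was called by limma. At each of these stages 1 of them had an unadjusted p below 0.05 in limma, beside 1846, 3668 and 3342 of all 16124 genes tested.

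Among the listed feedback inhibitors and ETS genes, more were called higher than lower in the KO-labelled EB8 libraries. ERK activity itself was not measured, and its part in these calls was not tested. Of 12 feedback inhibitors and ETS genes, 5 were higher and 1 was lower, where 10.4% of all genes were called higher and 12.5% lower, with a median log2 difference of 0.91 beside -0.03 over all genes. Spry4, a Sprouty inhibitor of receptor signalling, held 60.9 and 54.0 normalised counts in WT-labelled and 467 and 809.6 in KO-labelled EB8 libraries (3.40, limma, adjusted p = 0.0015). The ETS factor Etv5 held 301 and 421 against 3274 and 3273 (3.20, limma, adjusted p = 3.0e-05), and Etv4 held 126 and 291 against 913 and 1759 (2.72, limma, adjusted p = 0.0033). Il17rd, a membrane inhibitor of FGF receptors, and Spred2 were also higher, at 1.34 and 0.87. The exception was the ERK phosphatase gene Dusp4, which was lower, at -1.70 (limma, adjusted p = 0.049), a call that was lost without any 1 of the 4 EB8 libraries. The calls of Spry4, Etv4 and Etv5 held without any 1 of these libraries, and those of Il17rd and Spred2 did not. Spry1, Spry2, Spred1, Spred3, Dusp6 and Etv1 were not called at EB8. At EB5 Etv4 and Etv5 were higher (2.57 and 1.52), where 350 of all 16124 genes tested were higher. At EB4 Etv5 alone was higher (1.35), where 443 of all genes were. Each of these Etv4 and Etv5 calls was lost without at least 1 library of its stage, and no gene of the list was called lower at either stage. At ES none was called and none had an unadjusted p below 0.05 in limma, beside 1846 of all 16124 genes tested. The list summed to 35779 and 37698 normalised counts in KO-labelled ES libraries and to 19073 and 24770 at EB8. In WT-labelled libraries it summed to 40861 and 22324 at ES and to 12014 and 15203 at EB8.

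Of 7 tested co-receptors and FGF-binding proteins, 2 were lower and 0 higher in the KO-labelled EB8 libraries, where 12.5% of all genes were lower and 10.4% higher, with a median of -1.43. Fgfbp3, a secreted carrier of FGFs, held 1588 and 1996 normalised counts in WT-labelled and 31.7 and 52.2 in KO-labelled EB8 libraries (-5.42, limma, adjusted p = 4.7e-05). The decoy receptor gene Fgfrl1 held 1343 and 1377 against 375 and 438 (-1.75, limma, adjusted p = 0.00038). Both calls held without any 1 EB8 library. Fgfrl1 was also lower at EB4 (-1.43) and EB5 (-1.25) and Fgfbp3 at EB4 (-1.99), each lost without at least 1 library of that stage. Klb, the co-receptor through which Fgf15 acts on Fgfr4, held 135 and 169 in WT-labelled and 7.58 and 5.82 in KO-labelled EB5 libraries (-4.31, limma, adjusted p = 0.022) and was not called at EB8. Flrt3, a membrane partner of FGF receptors, was lower at EB5 as well (-2.14, limma, adjusted p = 0.028), and both EB5 calls were lost without at least 1 EB5 library.

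Of 18 heparan sulphate core proteins and enzymes, 5 were lower and 1 was higher at EB8, where 12.5% of all genes were lower and 10.4% higher, with a median of -0.52. The lower ones included Ndst1, a sulphating enzyme (-1.32), and the core proteins Sdc1 (-1.29) and Gpc1 (-1.21), of which the last was lost without some EB8 libraries. Sdc4, also a core protein, was higher, with 6687 and 3676 normalised counts in KO-labelled against 1128 and 1503 in WT-labelled EB8 libraries (1.93, limma, adjusted p = 0.00058). At EB4 and EB5 3 of the 18 were lower and 0 higher, where 543 and 350 of all 16124 genes tested were lower. Sdc1 (-1.01 and -1.21) and Gpc6 (-2.45 and -2.74) were among the 3 at both stages. All these EB4 and EB5 calls of the 18 genes were lost without at least 1 library of the stage.

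Of 18 genes from the adaptor Frs2 to the ERK kinases, 4 were lower and 0 higher at EB8, where 22.9% of all genes were called and 12.5% were lower, with a median of -0.14. They included the exchange factor gene Sos2 (-0.75), Nras (-0.68) and Plcg1 (-0.50). At EB4 3 were lower, Sos2 (-1.06) and Mapk3 (-0.79) among them, where 543 of all 16124 genes tested were lower. At EB5 Sos2 alone was lower (-1.02), where 350 of all genes were. Each of the named calls was lost without at least 1 library of its stage. Of the 12 other ligand genes listed, 4 reached the filter, and limma called none of these at any stage. At an unadjusted p below 0.05 in limma there was 1 at EB8, beside 5803 of all 16124 genes tested, and none at ES, EB4 or EB5. Of the 4 intracellular FGF homologues, which are not secreted, Fgf14 was lower at EB4 (-3.29, limma, adjusted p = 0.04, lost without some EB4 libraries) and none was called at ES, EB5 or EB8.

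**Figure D5:**
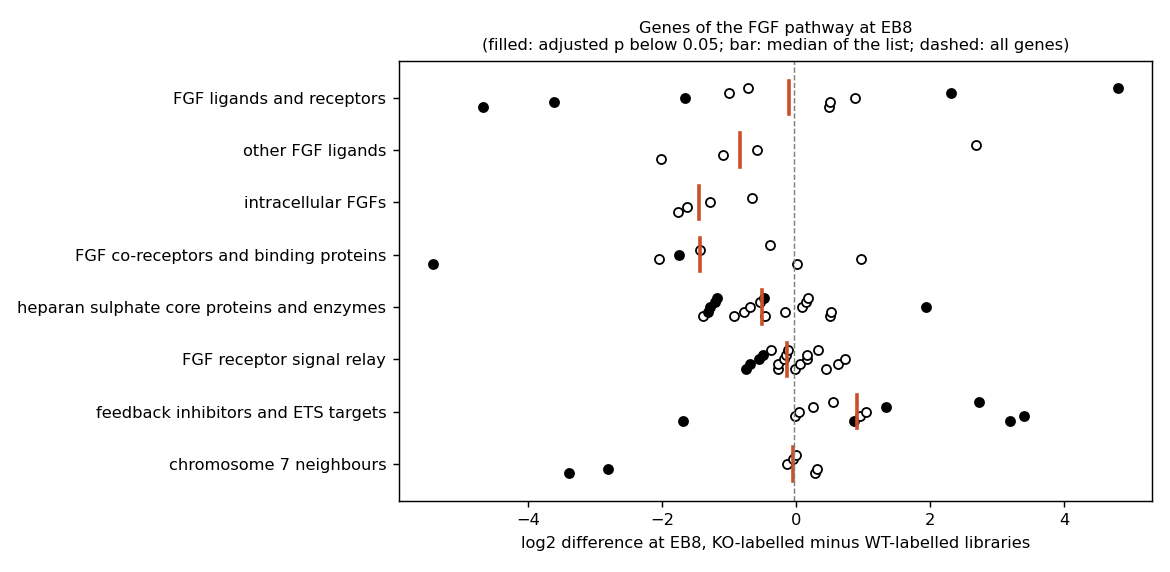
Log2 difference at EB8 between KO-labelled and WT-labelled libraries for each tested gene of 8 lists, filled where the adjusted p was below 0.05, with a bar at the median of each list and a dashed line at the median of all genes. Points of the feedback inhibitors and ETS targets lie mostly to the right of 0, with 5 called higher and Dusp4 called lower, and the called binding partners lie to the left except Sdc4.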

How the data were processed

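Polyadenylated RNA of 16 libraries was sequenced on a Genome Analyzer IIx as single reads after an unstranded TruSeq preparation. The authors deposited normalised counts (a signal: reads per gene divided by a size factor for each library), which per the labels and the submitters' processing notes came from CASAVA, TopHat2 2.0.10, HTSeq and DESeq2 1.0.19 on mm9. Deposited values were whole multiples of a step of 0.715 to 1.28 in each library, so that 100.0% came out as whole reads within a tolerance of 0.01, and the totals ran from 22442118 to 40711826 reads. The strand setting of counting is not given in the sources used here.

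Groups followed the labels, 8 groups of 2 libraries. The 16124 of 27807 genes with a mean of at least 10 were tested with limma 3.58.1 in R 4.3.3 on log2(normalised count + 1), with a mean per group over all libraries, moderated variances with a trend, two-sided tests and Benjamini-Hochberg adjustment at 0.05. Pseudocounts of 0.1 and 5, other filters and scalings, fits of the compared groups alone, replicate blocks, left-out libraries, edgeR 4.0.16 and DESeq2 1.42.0 on the recovered reads were the alternatives. No pair of replicates agreed within counting noise. Named genes were all 10 members, the listed neighbours and feedback genes, up to 4 called genes with the largest change in each other list, and the 3 genes most like each member, of which some are not reported here. Members and lists were chosen with earlier results of these data known. Of the gene IDs, 27603 matched the annotation and 204 did not. Exact intervals and floors on reads cover counting error only. The scripts were tested on simulated data.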

Additional observations from a re-analysis of the deposited data

Results flagged for a closer look

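Of the results described, 1 differed between the genotypes by a test of the difference itself. The carrier gene Fgfbp3 went from 536 and 392 normalised counts at EB5 to 1588 and 1996 at EB8 in WT-labelled libraries, and from 269 and 109.6 to 31.7 and 52.2 in KO-labelled ones. The KO-labelled change minus the WT-labelled change was -4.01 on the log2 scale (limma interaction term, adjusted p = 0.0265). The call was lost in 7 of the 8 fits that left out 1 library of these groups.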

How the results depend on the processing

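With 2 libraries per group, leaving out 1 leaves a lone sample assumed to vary like the other groups, and depth limits Fgf8, Fgf15 and Fgf17 at EB8. No called result of a member turned its direction: 249 values under the alternatives other than left-out libraries kept their call and 27 lost it, and of those with a library left out 41 kept it and 51 lost it. Members called at EB4 (1) went to 0 with no filter, quantile normalisation or only the groups compared, to 2 with DESeq2, and to 0 without any 1 library. At EB5 the 5 became 3 with a pseudocount of 0.1, 2 with no filter, 0 with only the groups compared, and 0 to 2 with a library left out, and at EB8 there were 3 to 5, including Fgfr2, which is not among the 5, without KO-labelled EB8 replicate 1. For WT-labelled steps, the 3 from ES to EB4 became 0 with only the groups compared, 5 with DESeq2 and 1 to 3 with a library left out, the 3 from EB4 to EB5 became 8 and 1 to 3, and the 3 from EB5 to EB8 became 1 with only the groups compared and 1 to 2. For KO-labelled steps, the 1 from ES to EB4 became 2 with a pseudocount of 5, a mean of at least 50 or edgeR, 3 with DESeq2, 0 with only the groups compared and 0 to 1, the 2 from EB4 to EB5 became 1, and the 0 from EB5 to EB8 became 1 with quantile normalisation, 2 with DESeq2 and 0 to 1. The interaction from EB5 to EB8 went from 0 to 1 with a pseudocount of 5, quantile normalisation, only the groups compared or DESeq2. The uncalled Fgf8 difference at EB4 ran from -2.90 to 0.34 with a library left out, turning its sign without KO-labelled EB4 replicate 2. Causes were not tested. Over all genes, upper-quartile rescaling moved the EB8 median from -0.03 to 0.11 and the split of higher and lower calls from 1677 and 2020 to 2278 and 1615. The 986 calls at EB4 became 609 with no filter, 0 with only the groups compared and 2077 with DESeq2, the 700 at EB5 became 447, 72 and 1719, and the 0 at ES became 469 with DESeq2. Replicate numbers are shared between genotypes but the correlations of same-numbered deviations were 0.33 at ES, -0.06 at EB4, -0.21 at EB5 and -0.13 at EB8, and the labels give the numbers no meaning, so WT-labelled and KO-labelled libraries were not paired. Within a genotype they were 0.52 to 0.61 among the WT-labelled EB4, EB5 and EB8 groups, -0.18 to -0.05 between these and WT-labelled ES, and 0.23 to 0.42 among the KO-labelled groups. With the replicate block, 0, 1, 5 and 5 members were called at ES, EB4, EB5 and EB8, 3, 4 and 3 in the WT-labelled steps, 1, 2 and 0 in the KO-labelled steps and 0, 0 and 0 in the interactions. Both further blocks were chosen after seeing the data. With the KO-labelled numbers exchanged, 6 were called at EB8 and 1 from EB5 to EB8 in KO-labelled libraries. With a replicate block within each genotype, 0, 1, 5 and 6 were called at the 4 stages, 3, 5 and 3 in the WT-labelled steps, 2, 2 and 1 in the KO-labelled steps and 0, 0 and 1 in the interactions, where the 1 was Fgfr3 from EB5 to EB8 (-2.76, adjusted p = 0.0481 in limma); no call of a member was lost.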
